A study of Mus musculus with 8 samples.

Results

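Chemokines and chemokine receptors were examined in the colon of mice recovering from chemically induced colitis, with and without a conditional deletion of Arg1. Genes were chosen by symbol alone: protein-coding genes named Ccl, Cxcl, Ccr or Cxcr with a number, together with Cx3cl1, Cx3cr1, Xcl1, Xcr1 and Ackr1 to Ackr4. The rule took 67 of the 53465 rows deposited, with 62 distinct symbols, of which 44 rows were ligands and 23 receptors. On unplaced scaffolds lay 7 rows, all copies of Ccl19, Ccl21 or Ccl27. The 3 rows with a fitting symbol that are not annotated as protein-coding, among them Cxcl11, were outside the rule.

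RNA of 8 mice on the B6 background, aged 7 to 12 weeks and matched for age and sex, was sequenced. All 8 drank 2.5% DSS (dextran sulfate sodium, which damages the gut lining) over one week, then plain water up to day 10. The Arg1 ko group held 4 mice with a conditional, cell-specific deletion of Arg1, whose enzyme arginase 1 turns arginine into urea and ornithine; the wild type group held 4 littermates that expressed Arg1. No group analysed here was without DSS, and the labels name neither the cell type nor the driver of the deletion, nor the exons it removes. The sample numbers of the 2 groups form separate runs, so anything shared within a run cannot be told apart from genotype.

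Chemokines are small secreted proteins that bind G protein-coupled receptors on leukocytes and draw them along a gradient. Family members are named for the spacing of their first cysteines (CC, CXC, XC and CX3C), and most receptors accept several ligands. In the gut, epithelium, stroma and resident phagocytes make chemokines that recruit neutrophils and monocytes after injury, while others place lymphocytes in follicles or lead plasma cells and T cells to the mucosa. Atypical receptors bind chemokines without the usual G protein signal and remove or transport them.

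Values are regularised log2 values (rlog), counts scaled for library size and drawn toward the mean of the gene, which shrinks differences most where expression is low. They are not divided by transcript length, so levels of different genes are ranked here only to choose members whose values are given in full. Each difference is on this log2 scale, with wild type subtracted from Arg1 ko. Depth is unknown, as rlog does not retain read numbers. The labels call the tissue colon, and the protocol describes removal of Peyer's patches and epithelial aggregates released with 30 mM EDTA. Of the 10 epithelial markers (Epcam, Krt8, Car1 and others) none was listed at 0, and their mean rlog was 15.04 to 15.31 in wild type and 15.13 to 15.31 in Arg1 ko. Markers of other cells were measured in the same libraries, with list means of 11.06 to 11.50 for 10 fibroblast genes, 9.35 to 9.85 for 10 monocyte and macrophage genes and 4.23 to 5.79 for 10 B cell genes. Fewer cells of a type and less RNA per cell cannot be told apart in such samples. Arg1 itself had 5.59, 5.57, 5.02 and 5.58 in wild type 1 to 4 and 5.06, 4.87, 5.15 and 5.19 in Arg1 ko 1 to 4, a difference of -0.37 (limma adjusted p = 0.522). The third wild-type value lies inside the Arg1 ko range, and that mouse is called the library labelled wild type 3 below.

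Of the 67 rows 45 had a mean rlog of at least 3 and entered the test with all 16380 genes that did so. The other 22 comprised 11 listed at 0 in every library and 11 of low value. None of the 45 passed (limma, 0 of 45 with an adjusted p under 0.05), as was the case for all genes tested (0% called), and the smallest adjusted p among the 45 was 0.522. At an unadjusted p under 0.05 stood 7 of 45, or 15.6%, beside 9.10% of all tested genes. Leaving out single libraries moved this count from 7 to between 2 (without Arg1 ko 1) and 13 (without the library labelled wild type 3), with 12 without wild type 1, 9 without wild type 4, 5 without Arg1 ko 3, 4 without wild type 2 and 3 without Arg1 ko 2 or Arg1 ko 4. Shares of all tested genes at that p are not given for these fits, so the counts show nothing particular to the members. Of the 7 found with all libraries, 5 were lower and 2 higher in Arg1 ko, beside 4.37% lower and 4.73% higher of all tested genes. The values of the groups did not overlap in 2 members, Cxcl1 and Cxcl13, or 4.44%, which is near the 4.03% of all tested genes. Both were lower in Arg1 ko, beside 1.67% of all tested genes without overlap and lower, and no member was without overlap and higher, beside 2.36%. The median difference of the 45 was -0.01, beside 0.01 over all tested genes, with 21 higher and 24 lower. Without the library labelled wild type 3 limma called 1 member, Cxcl13, while 6.14% of all genes were called. Of 27 tested ligands 17 were lower (median -0.09), beside 14 without wild type 1 (median -0.01) and 22 without wild type 4 (median -0.17). Of 18 tested receptors 11 were higher (median 0.12), and 7 without wild type 4 (median -0.08). Leaving out some single library turned the sign of 17 of the 45 differences.

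**Figure D1:**
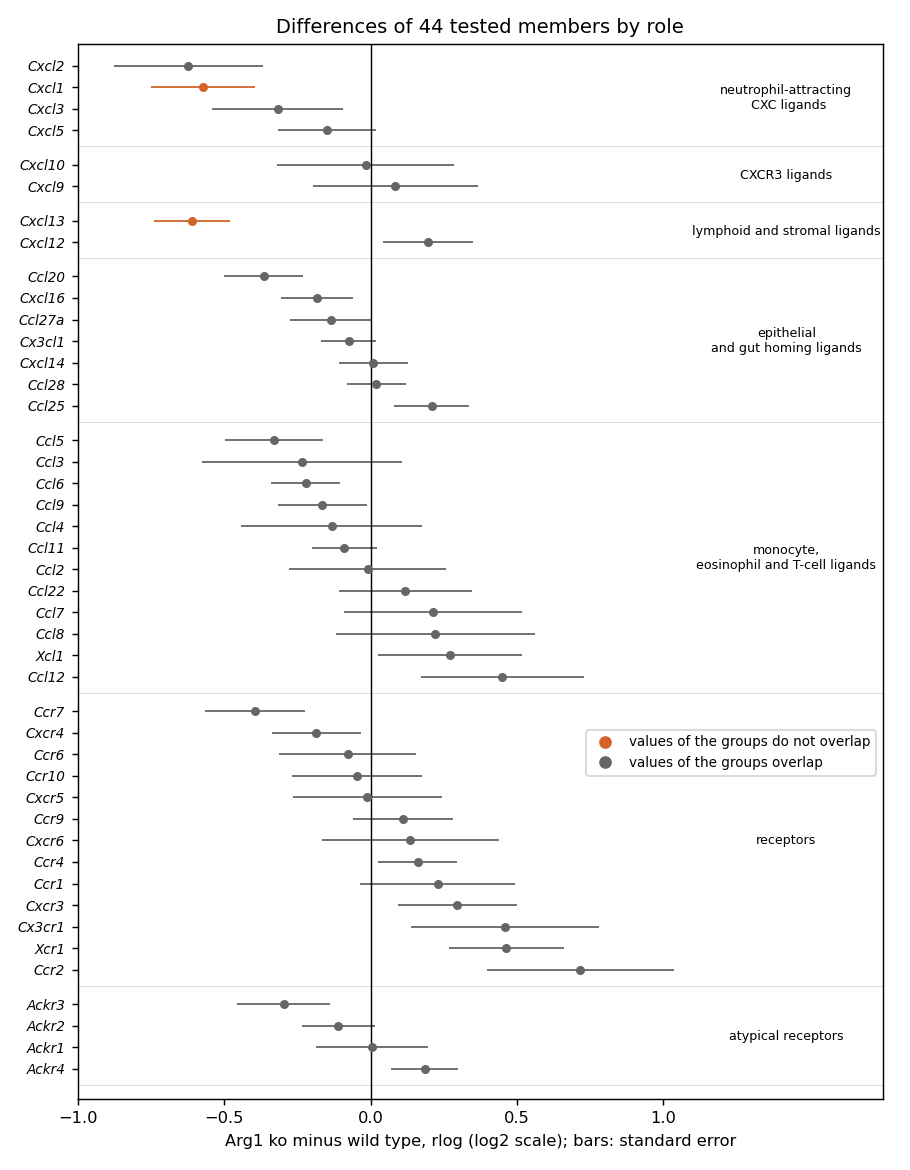
Difference of 44 of the 45 tested members (Arg1 ko minus wild type, rlog on the log2 scale, horizontal axis) with its limma standard error as a bar, grouped by role. Orange points mark Cxcl1 (-0.57) and Cxcl13 (-0.61), the members whose 4 values in each group do not overlap; no member passed the test over all genes.

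The CXC ligands that attract neutrophils through CXCR2 lay lower in Arg1 ko in all 4 tested members, and none passed the test. All 4 were of low value, with a mean rlog of 3.14 (Cxcl3) to 4.60 (Cxcl2) where the filter was 3. These genes sit side by side on chromosome 5 (90759360 to 90905938, GRCm38) with Cxcl15, which was listed at 0 in every library. The stretches before the start of Cxcl1, Cxcl2 and Cxcl3 are shown as those of the tested ligands here with an entry in the RefSeq promoter table; Cxcl5 was not searched. Capitals mark matches to GGG, any 3 bases and TTCC in a row, a form of the kappaB element bound by NF-kB, searched on both strands in the 250 bases before the start; runs of GGGAATTTCCC hold 2 overlapping matches, one on each strand. The stretches are read 5′ to 3′ on the plus strand, from RefSeq on GRCm38.p6, and run chr5:90891131-90891209 for Cxcl1, chr5:90903777-90903855 for Cxcl2 and chr5:90786003-90786085 for Cxcl3.
Cxcl1: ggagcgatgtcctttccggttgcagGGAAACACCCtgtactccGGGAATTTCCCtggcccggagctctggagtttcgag
Cxcl2: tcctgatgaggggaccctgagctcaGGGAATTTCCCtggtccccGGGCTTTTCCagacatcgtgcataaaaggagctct
Cxcl3: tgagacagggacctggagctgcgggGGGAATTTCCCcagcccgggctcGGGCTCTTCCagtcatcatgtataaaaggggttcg
The same GGGAATTTCC lies 71 to 62 bases before the start of Cxcl1, 97 to 88 before that of Cxcl2 and 73 to 64 before that of Cxcl3. The looser form, GGG, any 3 bases and TTCC, was found for 9 of the 46 members with an entry in the RefSeq table. It was found for 5.31% of the 27025 genes of that table. The match describes the letters and not binding.

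Cxcl1 (chromosome 5, 90891241 to 90893115), a neutrophil attractant made by epithelium and macrophages, had 3.96, 4.65, 4.24 and 3.83 in wild type 1 to 4 and 3.77, 3.37, 3.62 and 3.64 in Arg1 ko 1 to 4. Every Arg1 ko value lay below every wild-type value. Wild type averaged 4.17 ± 0.36 (SD, n = 4) and Arg1 ko 3.60 ± 0.17 (SD, n = 4). The difference was -0.57, standard error 0.18 (limma adjusted p = 0.522). The exact two-sided permutation p was 0.0286, the smallest that 70 assignments allow and the value of any gene without overlap. Without wild type 2 the difference was -0.41.

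Cxcl2, a close relative of Cxcl1 released early by phagocytes, had 4.58, 5.74, 4.72 and 4.62 in wild type and 4.16, 4.06, 4.69 and 4.26 in Arg1 ko. Wild type 2 stood well above the other wild types, and Arg1 ko 3 lay inside the wild-type range. The difference was -0.62, standard error 0.25 (limma adjusted p = 0.522; exact permutation p = 0.0857), and -0.35 without wild type 2. Cxcl5, a CXCR2 ligand of epithelium, had 3.85, 4.09, 3.77 and 3.31 in wild type and 3.35, 3.73, 3.72 and 3.63 in Arg1 ko, so the groups overlapped and the difference was -0.15, or -0.04 without wild type 2. Cxcl3, another CXCR2 ligand, differed by -0.32, and by -0.12 without wild type 2, with 2.71 to 3.90 in wild type and 2.73 to 3.27 in Arg1 ko.

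Wild type 2 held the highest value of all 4 of these ligands, with a median deviation of 0.77 from the mean of each gene, where the other 7 libraries lay between -0.31 and 0.12. Without it the median difference was -0.23 instead of -0.44. The mean deviation over the 8 tested neutrophil markers was also highest in wild type 2, at 0.77 against -0.33 to 0.22 elsewhere. Not every marker was highest there, as Csf3r was highest in Arg1 ko 1 (5.66) and G0s2 in wild type 1 (7.86). Of the 8 tested markers 7 were lower in Arg1 ko, with a median of -0.36 and none past the test, while Csf3r was higher by 0.28. The whole list of 10 had a mean rlog of 4.78 to 5.63 in wild type and 4.73 to 4.90 in Arg1 ko, and none of its genes was at 0. The part of neutrophil RNA in the ligand values was not tested. Cxcr2, the receptor of these ligands on neutrophils, was below the filter at 1.88, 2.05, 2.08 and 2.03 in wild type and 2.07, 2.01, 2.00 and 2.02 in Arg1 ko. Both groups overlapped throughout, and Cxcr1, its relative, had a mean of -1.74.

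**Figure D2:**
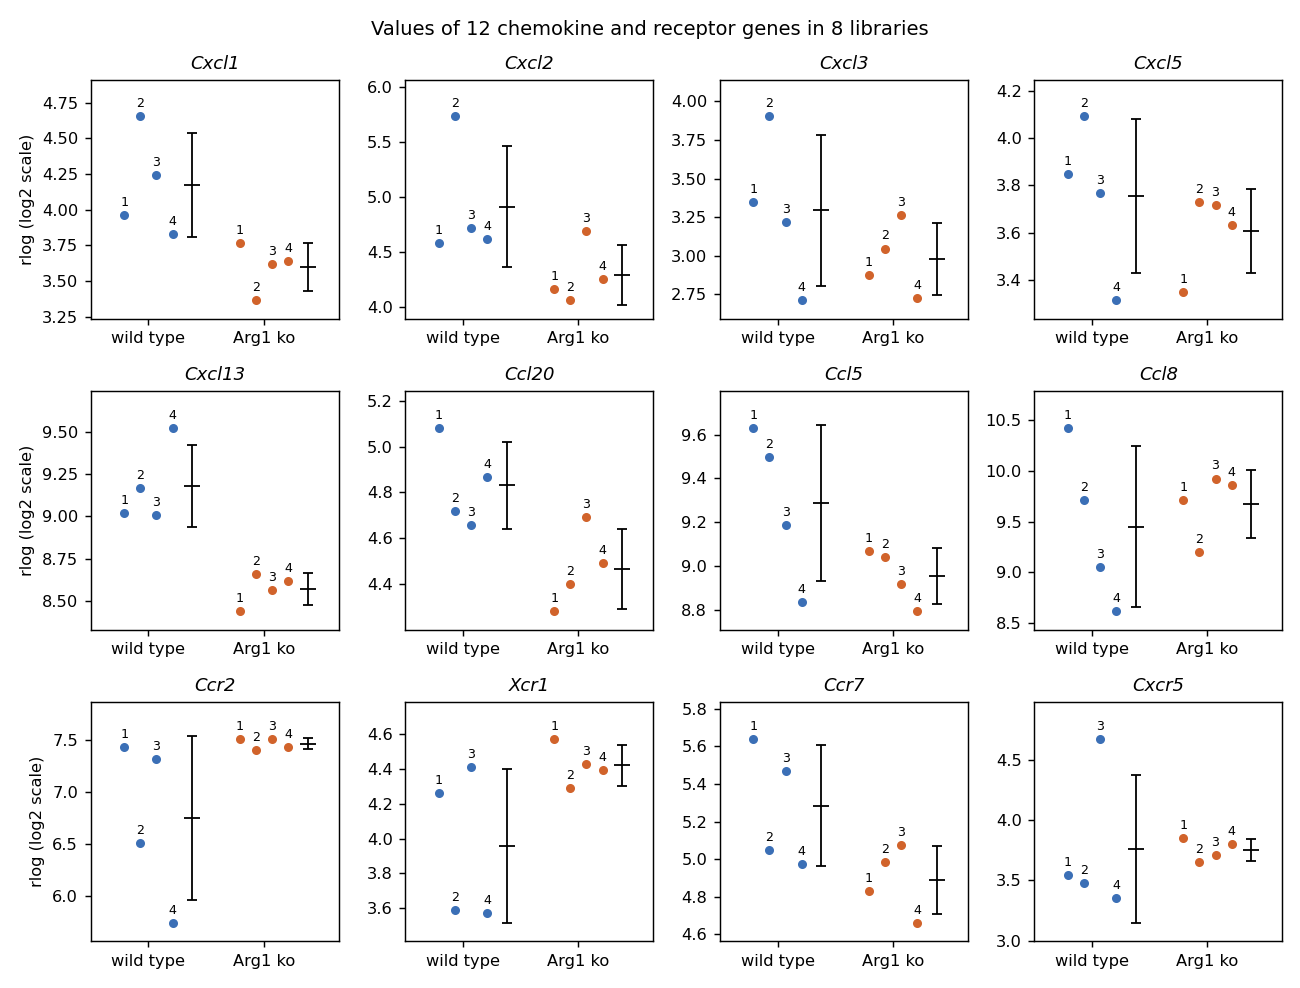
Values of 12 members in every library (rlog, vertical axis, with its own range in each panel and not from 0); blue points are wild type, orange points Arg1 ko, the digit is the replicate, and the black bar is the mean with SD (n = 4). Cxcl1 and Cxcl13 are the panels without overlap, wild type 2 stands apart in Cxcl2 (5.74), and wild type 4 is the lowest in Ccl8 (8.62), Ccr2 (5.74), Xcr1 (3.57) and Cxcr5 (3.36).

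Cxcl13 had the smallest p of the 45 members. It is the ligand of CXCR5 that gathers B cells into follicles and is made mainly by follicular stroma (chromosome 5, 95956951 to 95961068). Values were 9.02, 9.17, 9.01 and 9.52 in wild type 1 to 4 and 8.44, 8.66, 8.56 and 8.62 in Arg1 ko 1 to 4. Every Arg1 ko value lay below every wild-type one, with wild type 4 the highest. Wild type averaged 9.18 ± 0.24 (SD, n = 4) and Arg1 ko 8.57 ± 0.09 (SD, n = 4). The difference was -0.61, standard error 0.13. With 8 libraries this did not pass (limma adjusted p = 0.522). The exact permutation p was 0.0286, which any gene without overlap has, as 4.03% of all tested genes do. It therefore restates the lack of overlap and is not a second test. Leaving out single libraries kept the difference between -0.67 and -0.50, and it passed without the library labelled wild type 3 (limma adjusted p = 0.0345), in a fit that called 1005 genes in all.

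Cxcr5, the receptor of Cxcl13 on B cells and follicular helper T cells, showed another arrangement of the libraries. Its values were 3.54, 3.48, 4.68 and 3.36 in wild type and 3.85, 3.65, 3.71 and 3.80 in Arg1 ko, with only the library labelled wild type 3 standing high. The difference was -0.01, and 0.29 without that library. Over the 8 libraries Cxcl13 and Cxcr5 had a Pearson r of -0.25 and a Spearman rho of -0.74 (exact permutation p = 0.574 and 0.0458, adjusted over 13 pairs 0.746 and 0.374). Pearson r was 0.09 without the 2 libraries farthest from the Cxcl13 median. B cell markers were high in the same library: the 9 tested had a mean deviation of 1.13 in the library labelled wild type 3 and -0.44 to 0.18 in the other 7, and none of the 10 was listed at 0. Of those 9, 8 were lower in Arg1 ko, with a median of -0.41 and none past the test; the list mean was 4.23 to 5.79 in wild type and 4.43 to 4.64 in Arg1 ko. Their part in the Cxcr5 and Cxcl13 values was not tested. Of the markers of follicular and lymphoid stroma 7 of 8 tested were lower, with a median of -0.16 and none past the test. None of the 9 matched was listed at 0, their mean was 6.33 to 6.81 in wild type and 6.29 to 6.40 in Arg1 ko, and their part in the Cxcl13 values was not tested.

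Cxcl12, a stromal ligand of CXCR4 that holds leukocytes and progenitors in tissue, had 10.93, 10.57, 11.17 and 10.54 in wild type and 11.01, 11.25, 10.88 and 10.85 in Arg1 ko, a difference of 0.20 with overlapping groups, or 0.11 without wild type 4. Of the 10 fibroblast markers, none at 0, 8 were higher in Arg1 ko (median 0.26) and none passed the test. An unadjusted p under 0.05 was found for 5 of the 8, Col1a1, Col1a2, Col3a1, Sparc and Postn. Of all tested genes, 4.73% were higher at that p. Dcn differed by -0.11 and Thy1 by -0.05. The mean of the 10 markers was 11.06 to 11.38 in wild type and 11.42 to 11.50 in Arg1 ko, without overlap. Their part in the stromal ligand values was not tested. Cxcr4 had 7.57, 7.56, 8.16 and 7.69 in wild type and 7.71, 7.59, 7.51 and 7.43 in Arg1 ko. Its highest value was again in the library labelled wild type 3, and the difference of -0.18 was -0.05 without it. The remaining lymphoid ligands, Ccl19 and the Ccl21 genes, comprise 8 rows; 6 were listed at 0 in every library, and Ccl19 and Ccl21a on chromosome 4 had means below 0. Near-identical copies of these genes share reads, so their counts are uncertain.

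Ccl20, which epithelium makes to attract CCR6-bearing dendritic cells and lymphocytes, had the third smallest p of the 45 members. The stretch before its start (chr1:83116661-83116720, plus strand, GRCm38.p6) is shown since it holds the same kind of match in capitals, here on the minus strand.
Ccl20: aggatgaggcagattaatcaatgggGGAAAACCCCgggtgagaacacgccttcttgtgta
Values were 5.08, 4.72, 4.66 and 4.87 in wild type and 4.28, 4.40, 4.69 and 4.49 in Arg1 ko, so that the groups overlapped through Arg1 ko 3 and the library labelled wild type 3 alone. The difference was -0.37, standard error 0.13 (limma adjusted p = 0.522; exact permutation p = 0.0571), and leaving out single libraries kept it between -0.44 and -0.28. Ccr6, the receptor, had 2.69, 3.07, 3.92 and 2.79 in wild type and 3.03, 2.91, 3.15 and 3.07 in Arg1 ko. It was high only in the library labelled wild type 3, as Cxcr5 was, and its difference of -0.08 was 0.19 without that library.

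The other ligands of epithelium and gut homing differed little between the groups. Ccl25, the ligand that leads CCR9-bearing T cells to the gut, had 7.03, 6.82, 7.12 and 6.67 in wild type and 7.20, 7.00, 7.12 and 7.17 in Arg1 ko, a difference of 0.21 that was 0.13 without wild type 4. Ccr9 had 5.12, 5.20, 5.44 and 4.70 against 5.44, 5.26, 4.96 and 5.26, a difference of 0.11 that was -0.03 without wild type 4. The exons of Ccr9 share 18.8% of their bases with another annotated gene on the opposite strand, so its counts are uncertain. Both genes were lowest in wild type 4.

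Ccl28, an epithelial ligand that guides IgA plasma cells through CCR10, had 10.19, 10.13, 10.50 and 10.30 in wild type and 10.23, 10.38, 10.31 and 10.27 in Arg1 ko. The Arg1 ko values lay inside the wild-type range, and the difference was 0.02, standard error 0.10. Ccr10 had 4.89, 4.07, 4.71 and 3.83 in wild type and 4.41, 4.09, 4.40 and 4.42 in Arg1 ko, a difference of -0.05.

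Cxcl16, a membrane-bound ligand of CXCR6, had 9.95, 9.79, 9.76 and 9.43 in wild type and 9.64, 9.55, 9.62 and 9.38 in Arg1 ko, a difference of -0.18 that was -0.11 without wild type 1. Its exons share 18.3% of their bases with those of Zmynd15 on the opposite strand, and whether the counting used strand is unknown here. Cxcr6, which marks tissue-resident T cells, had 6.57, 5.998, 6.39 and 4.98 against 6.39, 6.11, 6.05 and 5.92, a difference of 0.14 that was -0.20 without wild type 4. Cx3cl1, or fractalkine, a membrane-anchored ligand for intestinal macrophages, had 10.78, 10.73, 10.94 and 10.96 in wild type and 10.77, 10.91, 10.71 and 10.72 in Arg1 ko, a difference of -0.08. Cxcl14 differed by 0.01 and Ccl27a, which has near-identical copies, by -0.14, while Cxcl17 was below the filter at 2.21 and the 3 other Ccl27 rows were at 0.

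The interferon-induced ligands of CXCR3, which draw activated T cells, had near-equal group means and varied widely within the wild type. Cxcl9 had 8.38, 6.87, 7.34 and 7.00 in wild type and 7.55, 7.42, 7.51 and 7.46 in Arg1 ko. Cxcl10 had 7.83, 6.39, 6.47 and 6.30 in wild type and 6.74, 6.64, 6.59 and 6.94 in Arg1 ko. Wild type 1 alone stood high in both, and the differences of 0.08 and -0.02 became 0.41 and 0.34 without it. The stretch before Cxcl10, shown because it carries both motifs searched, runs along the minus strand (chr5:92348959-92349127, GRCm38.p6). Its first capitals match GAAA, any 2 bases and GAAA in a row, a form of the interferon-stimulated response element, and the others the kappaB letters above, both searched on both strands.
Cxcl10: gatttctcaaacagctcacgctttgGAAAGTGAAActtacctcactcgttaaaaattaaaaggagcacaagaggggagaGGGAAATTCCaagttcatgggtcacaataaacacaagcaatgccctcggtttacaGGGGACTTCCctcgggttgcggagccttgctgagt
The interferon letters were found for 3 of the 46 members with an entry (Cxcl10, Cxcl14 and Ccl19) and for 3.46% of the 27025 genes. Cxcr3 had 4.47 to 5.45 in wild type and 5.15 to 5.46 in Arg1 ko, a difference of 0.30 that was 0.11 without wild type 4.

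Ligands for monocytes, eosinophils and T cells were 5 higher and 7 lower of 12 tested, with a median of -0.05 and none past the test. Without wild type 1, 8 of 12 were higher (median 0.17), and without wild type 4, 2 of 12 (median -0.19). Wild type 1 held the highest value of all 12, beside 26.5% of all tested genes, and wild type 4 the lowest of 8, beside 24.3%. Ccl6, a myeloid ligand of CCR1, had 13.77, 13.73, 13.44 and 13.43 in wild type and 13.44, 13.50, 13.23 and 13.30 in Arg1 ko, a difference of -0.22 that was -0.07 under quantile normalisation. Ccl9, its neighbour on chromosome 11, had 10.50, 10.36, 10.00 and 9.84 against 10.17, 9.81, 10.01 and 10.05, a difference of -0.16 that was -0.06 without wild type 1. In both, wild types 1 and 2 stood highest.

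Ccl5 (RANTES), a product of T cells and natural killer cells, had 9.63, 9.50, 9.19 and 8.84 in wild type and 9.07, 9.04, 8.92 and 8.79 in Arg1 ko. The groups overlapped, with Arg1 ko 4 the lowest of all and wild types 1 and 2 the highest. The difference was -0.33, standard error 0.17 (limma adjusted p = 0.522), and -0.22 without wild type 1. Ccl8, a monocyte attractant, had 10.42, 9.71, 9.05 and 8.62 in wild type and 9.71, 9.20, 9.92 and 9.86 in Arg1 ko. The wild-type mice spanned 1.81 and the Arg1 ko mice 0.73, so the difference of 0.22 (standard error 0.34) lay inside the spread, and it was -0.06 without wild type 4.

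These ligands lie in neighbouring sets of genes. In the set Ccl5, Ccl9, Ccl6, Ccl3 and Ccl4 (chromosome 11, 83525778 to 83664683) all 5 lay lower in Arg1 ko, by 0.13 to 0.33 in size, with a median of -0.22. In the nearby set, 3 of the 5 tested of Ccl2, Ccl7, Ccl11, Ccl12, Ccl8 and Ccl1 (82035571 to 82305690) lay higher, with a median of 0.21. Both sets were led by wild type 1, with median deviations of 0.51 and 0.61. Without wild type 4 the medians were -0.38 and -0.06, and without wild type 1 they were -0.06 and 0.51. In the Ccl5 set, 3 of the 5 were lower without wild type 1 and 2 were higher, Ccl3 by 0.12 and Ccl4 by 0.17. Ccl12, a monocyte attractant that acts through CCR2, had 4.04 to 5.50 in wild type and 4.87 to 5.41 in Arg1 ko, and its difference of 0.45 was 0.24 without wild type 4. Ccl2, the main CCR2 ligand, had 4.38 to 5.74 and 5.08 to 5.29. Ccl11, or eotaxin, differed by -0.09. Ccl22, a ligand of CCR4, differed by 0.12, by -0.02 without wild type 4 and by 0.36 without wild type 1. Xcl1, the ligand of XCR1, differed by 0.27, and by 0.05 without wild type 4. The exons of Xcl1 share 18.7% of their bases with those of Gm20743 on the opposite strand, so its counts are uncertain. Ccl24 (mean 2.90) and Ccl17 (2.52) were below the filter, Ccl1 had a mean below 0, and Ccl26 was listed at 0 in every library. The receptors below it were Ccr3 (2.05), Ccr8 (1.12), Cxcr1, Cxcr2 and Ccr1l1.

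Among the receptors 9 of 14 tested were higher in Arg1 ko, with a median of 0.15 and none past the test. Ccr2, which takes monocytes from blood into tissue (chromosome 9, 124101950 to 124113557), had 7.43, 6.50, 7.31 and 5.74 in wild type and 7.51, 7.41, 7.51 and 7.43 in Arg1 ko. The Arg1 ko values lay within 0.11 of each other and overlapped the wild-type range at its top; wild types 2 and 4 were low. Wild type averaged 6.75 ± 0.79 (SD, n = 4) and Arg1 ko 7.46 ± 0.05 (SD, n = 4). The difference was 0.72, standard error 0.32 (limma adjusted p = 0.522; exact permutation p = 0.0571). Without wild type 4 it was 0.38.

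Xcr1, a receptor of cross-presenting dendritic cells, showed the same arrangement, with 4.26, 3.59, 4.42 and 3.57 in wild type and 4.58, 4.29, 4.43 and 4.40 in Arg1 ko. The difference was 0.46, standard error 0.20 (limma adjusted p = 0.522), and 0.33 without wild type 4. Of 10 dendritic cell markers, none at 0, 7 were higher (median 0.11) and none passed the test; their mean was 5.75 to 6.18 in wild type and 6.02 to 6.20 in Arg1 ko. Their part in the Xcr1 values was not tested.

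Ccr7, which carries dendritic cells and naive T cells to lymph nodes, had 5.64, 5.05, 5.47 and 4.98 in wild type and 4.83, 4.98, 5.08 and 4.66 in Arg1 ko. Wild type 1 and the library labelled wild type 3 stood high, the groups overlapped, and the difference was -0.40, standard error 0.17 (limma adjusted p = 0.522; exact permutation p = 0.143).

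Further receptors of leukocytes were low in wild type 4. Ccr1, a receptor of neutrophils and monocytes that lies near Ccr2, Xcr1, Ccr9 and Cxcr6 on chromosome 9, had 6.44 to 7.73 in wild type and 7.45 to 7.79 in Arg1 ko. Cx3cr1, the fractalkine receptor of intestinal macrophages, had 6.89 to 8.65 in wild type and 8.19 to 8.50 in Arg1 ko. Both genes were lowest in wild type 4, as Ccr2, Xcr1, Ccr9 and Cxcr6 were, and the groups overlapped. The differences of 0.23 for Ccr1 and 0.46 for Cx3cr1 were -0.08 and 0.13 without wild type 4. Over the 14 tested receptors 6 were higher without it, with a median of -0.05. The mean deviation was also lowest in wild type 4 over the T cell markers (-0.62, against -0.10 to 0.34 elsewhere). The same held over the monocyte and macrophage markers (-0.28, against -0.05 to 0.23). Wild type 4 was lowest also over the B cell (-0.44) and dendritic cell markers (-0.30). It was not lowest over the neutrophil (0.09), epithelial (0.10), endothelial (0.26) or fibroblast markers (-0.16). Nor was it over those of follicular and lymphoid stroma (-0.12) or of mast cells and eosinophils (-0.11). Not every marker was lowest there, as Cd4 (7.67) and Csf1r (9.87) were lowest in wild type 2. None of the 10 T cell or 10 monocyte and macrophage markers was at 0. Their list means were 6.14 to 7.10 and 9.35 to 9.85 in wild type and 6.66 to 6.89 and 9.58 to 9.68 in Arg1 ko, and their part in the receptor values was not tested.

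The atypical receptors split evenly. Ackr3, which takes up CXCL12, had 8.82, 8.98, 8.93 and 9.58 in wild type and 8.85, 8.72, 8.69 and 8.87 in Arg1 ko. Wild type 4 stood apart from the rest, and the difference of -0.30 was -0.13 without it. Ackr4, which removes CCL19, CCL21 and CCL25, had 8.03 to 8.30 in wild type and 8.15 to 8.51 in Arg1 ko, a difference of 0.19. Ackr2, a scavenger of inflammatory CC chemokines, differed by -0.11 and Ackr1, the Duffy receptor of venules, by 0.01; exons of Ackr1 share 25.7% of their bases with Cadm3.

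**Figure D3:**
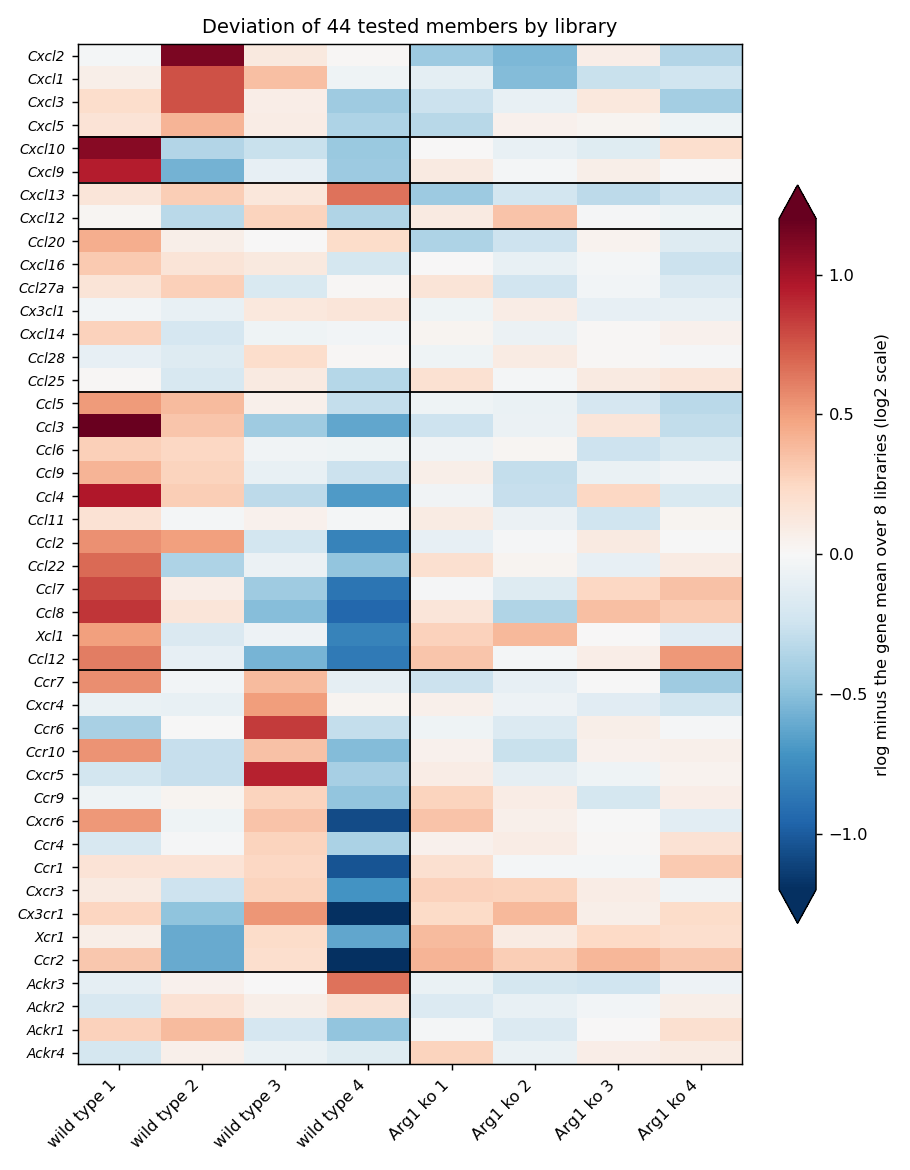
Deviation of 44 of the 45 tested members (rows, by role) from its mean over 8 libraries (rlog, log2 scale; colours saturate at 1.2 in size), by library (columns). Wild type 1 is high in the monocyte, eosinophil and T-cell ligands, wild type 2 in the neutrophil-attracting ligands, the library labelled wild type 3 in Cxcr5 and Ccr6, and wild type 4 is low in most of the receptors, while the Arg1 ko columns are paler.

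The wild-type mice differed from each other more than the Arg1 ko mice did. The SD was larger in wild type for 43 of the 45 tested members, or 95.6%, beside 90.9% of all tested genes. Members had a median SD of 0.40 across wild type and 0.15 across Arg1 ko, beside 0.26 and 0.10 over all tested genes. The 2 exceptions were Ackr4 and Ccl11. Ccr2 had an SD 14.8 times and Cxcl9 one 11.7 times as large in wild type as in Arg1 ko.

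The wild-type mice led in different members. Wild type 1 held the highest value of 20 members, or 44.4%, beside 26.5% of all tested genes, among them all 12 ligands for monocytes, eosinophils and T cells. Wild type 2 held that of 7, or 15.6%, beside 9.91%, among them all 4 neutrophil-attracting ligands. The library labelled wild type 3 held that of 8, or 17.8%, beside 12.5%, among them the receptors Cxcr5, Ccr6, Cxcr4 and Cx3cr1 and the ligand Ccl28. Wild type 4 held the lowest value of 25 members, or 55.6%, beside 24.3% of all tested genes, and 11 of those were among the 14 receptors. The Arg1 ko libraries together held the highest value of 7 members, or 15.6%, beside 26.4% of all tested genes.

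**Figure D4:**
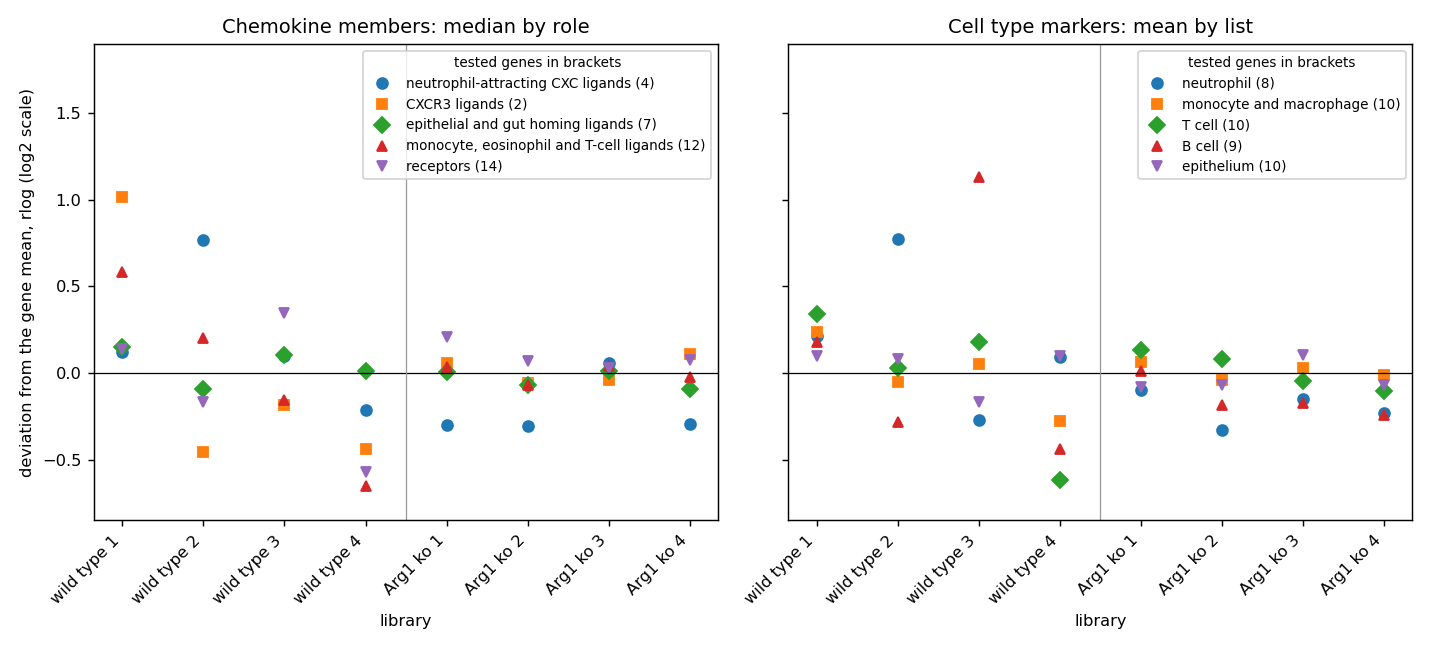
Deviation from the gene mean by library (rlog, log2 scale): left, the median over the tested members of 5 roles; right, the mean over the tested markers of 5 cell types, with the number of genes in brackets and a line between wild type and Arg1 ko. Neutrophil-attracting ligands (0.77) and neutrophil markers (0.77) are both highest in wild type 2, receptors (-0.57) and T cell markers (-0.62) are both lowest in wild type 4, and B cell markers (1.13) are highest in the library labelled wild type 3.

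Ligands and their receptors were compared over the 8 libraries in 13 pairs in which both genes passed the filter. No pair passed after adjustment by Pearson r or by Spearman rho (exact permutation over 40320 pairings), and 9 of 13 had a positive r. Cxcl16 and Cxcr6 had the smallest Pearson p, with r = 0.69 and rho = 0.71 (exact permutation p = 0.0482 and 0.0576, adjusted 0.246 and 0.374) and r = 0.72 without the 2 libraries farthest from the Cxcl16 median. As deviations from the genotype means they had r = 0.90 (exact permutation p = 0.0104 within genotypes, adjusted 0.135). Cxcl12 and Ackr3 ran opposite to each other, with r = -0.66 and rho = -0.57 (exact permutation p = 0.0493 and 0.151, adjusted 0.246 and 0.497). Their r was -0.20 without wild type 4 and Arg1 ko 2, the 2 libraries farthest from the Cxcl12 median. Leaving out such libraries narrows the range of the ligand, so a smaller r cannot show that a relation rests on them. Ccl25 and Ccr9 had r = 0.69 and rho = 0.48 (exact permutation p = 0.0567 and 0.243, adjusted 0.246 and 0.497). Their r was 0.32 without wild types 2 and 4, the 2 farthest from the Ccl25 median. As such deviations, Cxcl12 and Ackr3 had r = -0.57 (exact permutation p = 0.292 within genotypes, adjusted 0.58). Ccl25 and Ccr9 had r = 0.71 (exact permutation p = 0.094 within genotypes, adjusted 0.50). None of the 13 pairs passed by deviations after adjustment. These values pool both genotypes, as 4 libraries are too few for a value within a single genotype.

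Genes around the chemokine system were counted from lists of receptor signalling, of induction and mRNA control, and of chemokine-like molecules and processing. Of 30 signalling genes 20 were higher and 10 lower (median 0.08), none at an unadjusted p under 0.05. The genes with the smallest p are given here with their differences. Plcb2, a phospholipase activated by chemokine receptors, differed by 0.41 and Rgs18, a brake on G protein signalling, by 0.24. The leukocyte integrin chain Itgb2 differed by 0.23 and the receptor kinase Grk5 by 0.20.

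Of 25 tested genes that induce chemokines or control their mRNA 7 were higher and 18 lower (median -0.11), with none past the test. An unadjusted p under 0.05 was found for 2 of the 25, beside 9.10% of all tested genes. The groups did not overlap in 1 of the 25, beside 4.03% of all tested genes. Nfkbia, the inhibitor of NF-kB that NF-kB itself induces, averaged 11.96 ± 0.30 (SD, n = 4) across wild type and 11.43 ± 0.12 (SD, n = 4) across Arg1 ko, with no overlap and a difference of -0.53 (limma adjusted p = 0.522). Zfp36, which destabilises chemokine mRNA, differed by -0.55, with overlapping groups. Wild type 4 stood apart in Nfkbia (12.40, the other wild types 11.80 to 11.83) and in Zfp36 (12.88, the others 11.69 to 11.95). Differences without wild type 4 are not given for these lists. The NF-kB subunit gene Nfkb1 differed by 0.28 and Ltb, a lymphotoxin chain needed for follicles, by -0.34. Il17a, Il22, Ifng, Il6 and Lta were below the filter.

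Of 24 tested chemokine-like and processing genes 12 were higher and 12 lower (median 0.01), none past the test. The groups did not overlap in 1 of the 24, beside 4.03% of all tested genes. The matrix protease Mmp7, which sheds chemokine-bearing syndecan from epithelium, averaged 8.42 ± 0.19 (SD, n = 4) across wild type and 7.84 ± 0.24 (SD, n = 4) across Arg1 ko without overlap. The receptor Gpr35 differed by 0.31, the chemoattractant Rarres2 (chemerin) by -0.26 and the proteoglycan Sdc4 by -0.21.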

How the data were processed

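Each value is a regularised log2 value (rlog) that the authors deposited for a gene in a mouse; read numbers are not in the table. A stranded mRNA kit and 1000 ng of RNA per mouse were used, per the labels' protocols. The submitters' processing notes list DESeq2 1.16.1, featureCounts, Subread 1.5.3, STAR 2.5.2b, BWA 0.7.14-r1136 and the build GRCm38; whether strand was used in counting, the annotation and any filter are not stated there. Ensembl IDs were named from GENCODE vM21 (GRCm38), which gave a symbol for 53360 of 53465. All 8 columns were matched by the label that names them.

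Rows that vary and average at least 3 were fitted with limma 3.58.1 in R 4.3.3 (group term, empirical Bayes with a variance trend, two-sided) and adjusted by Benjamini-Hochberg over all 16380. Relations were tested with exact permutations (Python 3.11.15, numpy 2.4.6). The fit was tested on simulated data with the same SD for a gene in both groups, which does not cover the larger SD of wild type. Members, roles and lists were chosen with earlier results of these data known.

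Values in every library are given for members among the 10 highest means, the 8 smallest p, those without overlap, the 3 leading pairs and 15 chosen by name; Cxcl9 and Cxcl10, and ranges of others, were added after their values were seen. Up to 4 genes of each list are named, those with the smallest p. Cell type lists had 10 genes each; besides those in the report, none passed the test among 10 endothelial and 7 tested mast cell and eosinophil genes (medians 0.00 and 0.12). One member is counted but not reported here by name. Promoter letters came from RefSeq (GRCm38.p6), for 46 of 62 symbols. Exons of 10 of the 45 tested members overlap those of another gene. Alternatives were other filters, scalings and moderation, and leaving out each library.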

Additional observations from a re-analysis of the deposited data

Results flagged for a closer look

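In groups of 4 libraries, a value was singled out where its gap to the nearest other took up more of the group's range than Dixon's critical value allows, which chance gives in about 1 in 20 groups. Of 50 groups checked, 3 met this. Cxcl2 was 5.74 in wild type 2, where the next wild type had 4.72. Cxcr5 was 4.68 in the library labelled wild type 3, where the next had 3.54. Ccr10 was 4.09 in Arg1 ko 2, where the next had 4.40.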

How the results depend on the processing

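No member and no gene passed the limma test under 2 other filters (no filter, mean of at least 5), 2 other scalings or 2 other moderations. Leaving out single libraries gave 0 to 1005 genes and 0 to 1 members called, both highest without the library labelled wild type 3; without each of the other 7 both counts were 0. At an unadjusted p under 0.05, 1490 genes and 7 members stood. The median member difference stayed between -0.13 (without wild type 4) and 0.11 (without wild type 1). Aligned library medians and quantile normalisation gave -0.04 each. Aligned medians turned Ccl28 to -0.0098, and quantile normalisation moved Ccl6 from -0.22 to -0.07. Leaving out single libraries turned the sign of 17 of the 45 tested members; of the 24 tested members whose values are given by the naming rule these were 7: Ccr10 (-0.23 to 0.12), Ccl28 (-0.029 to 0.092), Cxcr5 (-0.15 to 0.29), Ccr6 (-0.22 to 0.19), Ccr9 (-0.028 to 0.22), Cxcr6 (-0.20 to 0.33) and Ccl8 (-0.057 to 0.55); the cause was not tested. With a mean of at least 5, 33 members were tested, so Cxcl1, Cxcl2 and Ccl20 have no value there. Depth is unknown, and rlog shrinks differences of the least expressed members most. No paired analysis was possible because the labels number no replicates and link no animals across the groups.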
